A study of Mus musculus with 3 samples.

Results

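The nuclear genes of the mitochondrial respiratory chain were followed through the non-cardiomyocytes (non-CMs) of the mouse heart under pressure overload. They were all genes whose symbol starts with Nduf, Uqcr, Atp5, Sdha, Sdhb, Sdhc, Sdhd or Cox4 to Cox8, without Gm and pseudogene symbols, that had at least 20 unique molecular identifiers (UMIs, each a counted transcript molecule) over the data. Of 27998 genes, 96 carried such a symbol and 94 reached 20 UMIs, while *Cox7b2* and *Cox8c* had 0 UMIs. By symbol alone, 38 genes were counted with complex I, 4 with complex II, 8 with complex III, 16 with complex IV and 17 with complex V (ATP synthase), and 11 as assembly factors (Ndufaf and Sdhaf symbols). Not every gene counted with a complex need encode a subunit of it. The hearts came from wild-type mice, with the atria removed. The TAC libraries were from male C57BL/6J JCL mice operated on at 8 weeks of age, so mice sampled at 12 weeks were older than those at 2 weeks, and the age of the healthy mice is not given in the sources used here. A healthy heart library (0 weeks) was set beside libraries at 2 weeks (adaptive hypertrophy) and 12 weeks (heart failure) after transverse aortic constriction (TAC), which narrows the aorta and loads the left ventricle. There was 1 library per phase, so phase and library cannot be told apart, no p-value was computed between phases, and the intervals given for phases cover counting error only.

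The respiratory chain passes electrons from NADH through complex I and from succinate through complex II to complexes III and IV, and complex V uses the proton gradient that results to make ATP. Mitochondrial DNA encodes a few core subunits of complexes I, III, IV and V, and the nucleus encodes the others. Several nuclear subunits exist as alternative forms. *Cox4i2* replaces *Cox4i1* in complex IV of some tissues and *Ndufa4l2* is a paralog of *Ndufa4* that is induced in hypoxia, while *Cox6a2*, *Cox7a1* and *Cox8b* are the forms of heart and skeletal muscle, where *Cox6a1*, *Cox7a2* and *Cox8a* serve most other tissues.

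Promoters are shown first because the transcription factors GABPA, YY1 and NRF1 are known for driving this group of genes, and because the 94 genes were chosen without use of sequence. RefSeq promoters on GRCm38.p6 (250 bases before to 50 bases after the start) were matched by symbol to 76 of the 94 genes; *Cox4i1*, *Cox4i2*, *Ndufa4l2* and *Cox6a2* were among those without a match. Both strands were searched for CCGGAAG (the core bound by GABPA and other ETS factors), AAGATGG (YY1) and TGCGCA (a part of the NRF1 site that reads the same on both strands). NRF1 sites without these exact letters were not counted. CCGGAAG was found in 19 of 76 promoters (25.0%) against 9.12% of all 27025, and TGCGCA in 20 (26.3%) against 8.06%. AAGATGG was found in 9 (11.8%) against 6.48%. At least 1 of the 3 motifs stood in 40 of the 76 promoters (52.6%) and in 21% of all promoters, and 2 or more in 8 (10.5%) and 2.56%. The 27025 promoters were not limited to genes counted in these cells, and the 94 genes were not compared with such genes alone. A match of letters is a description and not a bound site.

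The promoters below are those of *Cox8b* and *Cox8a*, the muscle form and its partner, and of the 3 genes with the most UMIs among the 8 that held 2 or more motifs: *Atp5l* (a complex V subunit), *Cox6a1* and *Ndufb8* (a complex I subunit). Capitals mark the 3 motifs on either strand and the letters TATAAA, which were found in 9.21% of the 76 promoters and 14.2% of all. All 5 lie on the minus strand and read 5′ to 3′ in the direction of the gene, at chr7:140900397-140900696, chr19:7217567-7217866, chr9:44920693-44920992, chr5:115348909-115349208 and chr19:44555393-44555692 in that order. The *Cox8b* promoter held none of the 3 motifs and had TATAAA beginning 5 bases into the transcript, while the *Cox8a* promoter held CTTCCGG, the reverse complement of CCGGAAG, at 2 places. In *Ndufb8*, TGCGCA began at position 6 and AAGATGG at position 39 counted from the start.
Cox8b: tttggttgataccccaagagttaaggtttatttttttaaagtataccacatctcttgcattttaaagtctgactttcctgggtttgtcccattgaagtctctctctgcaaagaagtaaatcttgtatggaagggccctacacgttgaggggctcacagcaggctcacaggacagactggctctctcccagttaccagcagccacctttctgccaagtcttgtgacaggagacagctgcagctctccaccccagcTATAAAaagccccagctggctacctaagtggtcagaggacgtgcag
Cox8a: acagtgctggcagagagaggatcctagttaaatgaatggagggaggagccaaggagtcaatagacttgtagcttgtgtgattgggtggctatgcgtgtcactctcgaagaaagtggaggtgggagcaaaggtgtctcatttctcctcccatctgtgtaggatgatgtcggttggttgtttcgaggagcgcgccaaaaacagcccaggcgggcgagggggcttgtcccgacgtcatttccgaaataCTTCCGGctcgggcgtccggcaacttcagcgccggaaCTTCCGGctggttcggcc
Atp5l: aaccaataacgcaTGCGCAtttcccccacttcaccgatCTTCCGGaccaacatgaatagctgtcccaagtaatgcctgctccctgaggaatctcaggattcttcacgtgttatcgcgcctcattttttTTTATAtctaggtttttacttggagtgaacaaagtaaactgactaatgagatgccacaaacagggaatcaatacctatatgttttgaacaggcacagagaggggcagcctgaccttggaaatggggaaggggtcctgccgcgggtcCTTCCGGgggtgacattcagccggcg
Cox6a1: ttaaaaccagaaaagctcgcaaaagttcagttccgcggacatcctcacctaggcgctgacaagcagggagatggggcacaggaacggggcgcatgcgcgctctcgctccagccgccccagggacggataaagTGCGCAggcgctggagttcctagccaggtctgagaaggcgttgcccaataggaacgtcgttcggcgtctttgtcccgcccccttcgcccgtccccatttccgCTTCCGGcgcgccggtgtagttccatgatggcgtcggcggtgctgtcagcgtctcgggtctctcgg
Ndufb8: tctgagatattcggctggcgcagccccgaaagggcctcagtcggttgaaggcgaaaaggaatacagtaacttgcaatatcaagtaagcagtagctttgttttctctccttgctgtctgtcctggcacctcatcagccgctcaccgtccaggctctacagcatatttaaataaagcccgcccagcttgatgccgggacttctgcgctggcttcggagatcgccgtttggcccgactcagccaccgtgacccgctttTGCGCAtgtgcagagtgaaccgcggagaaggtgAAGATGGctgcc

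The 3 matrices held 3900, 2239 and 802 cells and 12309881, 4472377 and 1723863 UMIs at 0, 2 and 12 weeks. Cells were gated by summed marker UMIs into 3132 endothelial cells (ECs), 1535 fibroblasts (FBs), 1330 blood cells, 354 smooth muscle cells (SMCs) and 160 pericytes, 6511 in all, and SMCs with pericytes are called mural cells. Defining markers followed the gates, with *Acta2* at 9407 CPM in SMCs, *Rgs5* at 11236 CPM in pericytes and *Dcn* at 14128 CPM in FBs. The pericyte gate was not clean: *Acta2* stood at 2388 CPM there, and the EC marker list summed to 2709.8, 3472 and 2192 CPM at 0, 2 and 12 weeks, against 6551, 7872 and 8124 CPM in ECs. Mural gates were small after TAC, with 46 and 22 SMCs and 22 and 18 pericytes at 2 and 12 weeks, and the pericytes at 12 weeks held only 27375 UMIs. The libraries shared 5 cell barcodes (0 and 2 weeks), 1 (0 and 12 weeks) and 3 (2 and 12 weeks). Levels are given as CPM, the UMIs of a gene scaled to 1000000 UMIs of its class in that library. The libraries count transcript ends, so levels were not divided by transcript length, and capture can still differ from gene to gene. Classes were compared over 15 sums (5 classes in 3 libraries) with edgeR's quasi-likelihood test with library as a block and Benjamini-Hochberg adjustment over all 12987 genes tested. Where a log2 fold change is given, ± is its standard error, and a positive value means higher in the class named first. These sums come from 3 libraries and share their library's droplets and free RNA, and how many animals went into a library is not given in the sources used here.

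SMCs had the highest level of the respiratory chain genes. The 94 genes summed to 35696, 40881 and 44661 CPM in SMCs at 0, 2 and 12 weeks and to 26859, 30814 and 25096 CPM in pericytes. In ECs the sum was 22691, 24594 and 22151 CPM, in FBs 19393, 17879 and 17476 CPM and in blood cells 17532, 17040.2 and 16168 CPM. The mean over libraries was 40413 ± 4501 CPM in SMCs and 23145 ± 1283 CPM in ECs (SD, n = 3 libraries), and neither the 3 SMC values nor the 3 pericyte values overlapped those of ECs, FBs or blood cells. By the mean of the 3 libraries, 70 of 94 genes were highest in SMCs, 10 each in ECs and pericytes, 3 in FBs and 1 in blood cells, and blood cells were lowest for 57. In all 3 libraries SMCs were above ECs for 71 genes, above FBs for 78 and above blood cells for 80.

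**Figure D1:**
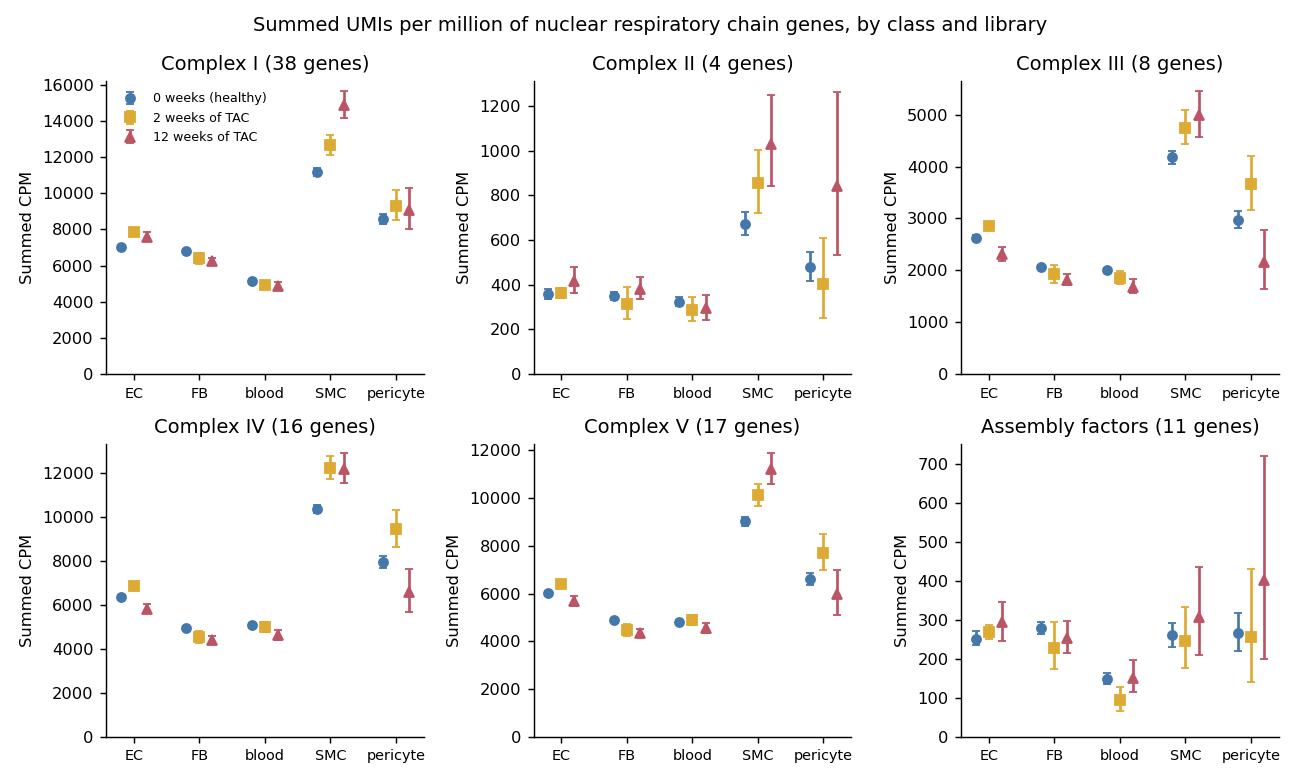
Summed CPM (y axis, from 0) of the genes counted with each complex and of the assembly factors by class (x axis). Points are libraries, with 95% Poisson intervals for counting error. SMC points lie above all EC, FB and blood points for complexes I to V, from 10376 to 12249.8 CPM for complex IV, and within the range of the others for assembly factors.

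The difference between SMCs and ECs ran through every complex. Of 94 genes, 46 were higher in SMCs and 3 lower (adjusted p under 0.05), where 11.8% of all tested genes were higher and 12.8% lower. The higher genes were 23 of the 38 counted with complex I, 2 of 4 with complex II, 5 of 8 with complex III, 7 of 16 with complex IV and 9 of 17 with complex V. None of the 11 assembly factors was called higher, and *Sdhaf4*, an assembly factor of complex II, was lower at -1.65 ± 0.44 (SE; adjusted p = 0.00237) on the log2 scale. The median log2 fold change was 0.66 over the 94 genes and -0.19 over all genes tested, and by complex it was 0.81 for I, 0.99 for II, 0.78 for III, 0.58 for IV, 0.61 for V and 0.09 for assembly factors.

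Subunits of complex II, which also works in the citric acid cycle, were among those with the larger differences. *Sdhc*, a membrane anchor of the complex, stood at 187, 258 and 297 CPM in SMCs at 0, 2 and 12 weeks and at 59.4, 71.0 and 60.8 CPM in ECs, a log2 fold change of 1.88 ± 0.28 (SE; adjusted p = 3.63e-08). *Sdha*, the flavoprotein that oxidizes succinate, stood at 173, 263 and 367 CPM in SMCs and 88.8, 91.5 and 147 CPM in ECs (1.25 ± 0.27, adjusted p = 1.26e-04). The SMC values of both genes lay above all EC values. *Sdhb*, the iron-sulfur subunit and the most abundant of the 4 over all gated cells, was at 213, 211 and 258 CPM in SMCs and 144, 135 and 149 CPM in ECs, which did not pass the test (0.66 ± 0.27, adjusted p = 0.0658).

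The most abundant subunits of the other complexes gave a mixed picture. *Uqcrh*, a hinge subunit of complex III, was higher in SMCs, at 1117, 1323 and 1170.1 CPM against 609.8, 682 and 482 CPM in ECs (log2 fold change 1.03 ± 0.24, adjusted p = 5.17e-04). *Atp5l*, a subunit of the membrane part of complex V, was also higher, at 1001, 995 and 1209.7 against 632, 685 and 442 CPM (0.89 ± 0.25, adjusted p = 0.0047). Among the genes called higher in SMCs, *Cox8a* had the largest difference after *Ndufa4l2*, *Cox4i2* and *Cox6b2*, at 1888, 2441 and 2261 CPM in SMCs against 571, 639 and 520.0 CPM in ECs (1.93 ± 0.24, adjusted p = 1.41e-10). *Ndufa4*, counted here with complex I by its symbol although its protein is known to associate with complex IV, was not called, at 565, 386 and 645 against 626, 584 and 608 CPM (-0.22 ± 0.25, adjusted p = 0.59). Over all gated cells the highest levels within a complex were 462 CPM for *Ndufa4*, 140.1 CPM for *Sdhb*, 629 CPM for *Uqcrh*, 952 CPM for *Cox4i1*, 668 CPM for *Atp5l* and 44.6 CPM for the assembly factor *Ndufaf2*, which was at 58.9, 64.4 and 39.7 CPM in SMCs, 48.6, 47.2 and 52.4 CPM in ECs and 56.5, 41.9 and 31.9 CPM in FBs. No gene was under 1 CPM, and the lowest was *Atp5s* at 5.30 CPM.

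The mitochondrial share of UMIs moved with this result. The median SMC had 7.56, 12 and 8.89% mitochondrial UMIs at 0, 2 and 12 weeks, the median EC 2.16, 2.21 and 2.10%. The 13 subunits encoded by mitochondrial DNA summed to 86857, 98788 and 102202 CPM in SMCs and 26209, 28451 and 25789 CPM in ECs. Of these, 12 of 13 were called higher in SMCs, with *mt-Nd6* the exception, where 11.8% of all genes were. With cells over 10% mitochondrial left out, 35 of the 94 nuclear genes were still called higher and 3 lower, where 1249 and 1490 of all 12901 genes were. Without the healthy library the calls among the 94 genes fell from 49 to 31 (29 higher). Over all genes 714 of 11113 were then higher, against 1535 of 12987 in the main fit. DESeq2 gave 62 higher and 3 lower, where 1397 and 1007 of all 12231 genes were, with a median of all genes of -0.02 in place of -0.19. The EC marker list stood at 1474, 1510.0 and 1289 CPM in SMCs and the CM list at 697, 784 and 1021 CPM, against 913, 630.0 and 218 CPM in ECs, and their part in the difference was not tested. *Cox6b2* was called higher in SMCs (2.97 ± 0.59, adjusted p = 3.54e-05) at 21.3, 5.85 and 0 CPM, where 0 UMIs at 12 weeks allow up to 29.7 CPM. Without the healthy library its log2 fold change was 0.67 (adjusted p = 0.893).

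SMCs also stood above pericytes. Of the 94 genes, 22 were higher in SMCs and none lower with edgeR, where 1.82% of all genes were higher and 0.739% lower. DESeq2 called 44 higher and 0 lower of the 81 genes with an adjusted p, where 195 of all 5182 were higher and 87 lower. The 3 with the largest differences were *Sdhc*, *Ndufb6* and *Ndufb9*, the last 2 being accessory subunits of complex I. *Ndufb9* was at 479, 609 and 664 CPM in SMCs and 285, 219 and 365 CPM in pericytes (log2 fold change 1.30 ± 0.29, adjusted p = 0.00281), and *Ndufb6* at 211, 275 and 367 and 133, 183 and 36.5 CPM (1.31 ± 0.35, adjusted p = 0.0183). *Sdhc* was at 122, 36.6 and 109.6 CPM in pericytes against the SMC values above (1.37 ± 0.34, adjusted p = 0.00931). The SMC and pericyte values did not overlap for *Ndufb6*, *Ndufb9* or *Sdhc*. After TAC, however, the pericyte values of *Ndufb6* and *Sdhc* rest on few UMIs, since pericytes held 54716 and 27375 UMIs in all at 2 and 12 weeks. Even 0 UMIs there at 12 weeks would allow up to 109.6 CPM. The count was 6 without the 2-week library, where 151 of all 12591 genes were higher, and 7 without the 12-week library (208 of 12746). It was 5 with library sizes alone (133 of 12987) and 1 without the library block (49 of 12987). In the main fit 237 of 12987 genes were higher, so the calls over all genes fell too. Mitochondrially encoded genes were again higher in SMCs, 9 of 13.

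In pericytes few of the genes outside the isoform pairs were called against ECs. Of the 94 genes 3 were higher (*Ndufa4l2*, *Cox4i2* and *Cox8a*) and 6 lower (*Ndufa4*, *Ndufa8*, *Atp5j*, *Cox6a2*, *Cox7a1* and *Cox8b*), where 5.95% of all genes were higher and 6.02% lower. Although the summed CPM was higher in pericytes in each library, the median log2 fold change after TMM normalization was -0.17, beside -0.26 for all genes. The split was 6 higher and 4 lower with library sizes alone, where 884 and 458 of all 12987 genes were. It was 8 and 4 with DESeq2, where 729 and 350 of all 11979 genes were. DESeq2 differs in both model and scaling, and its median of all genes was 0.04. *Cox8a* was at 1365, 1444 and 1352 CPM in pericytes (log2 fold change from ECs 0.94 ± 0.24, adjusted p = 0.0033), and these values lay above all those of ECs, FBs and blood cells and below all those of SMCs.

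**Figure D2:**
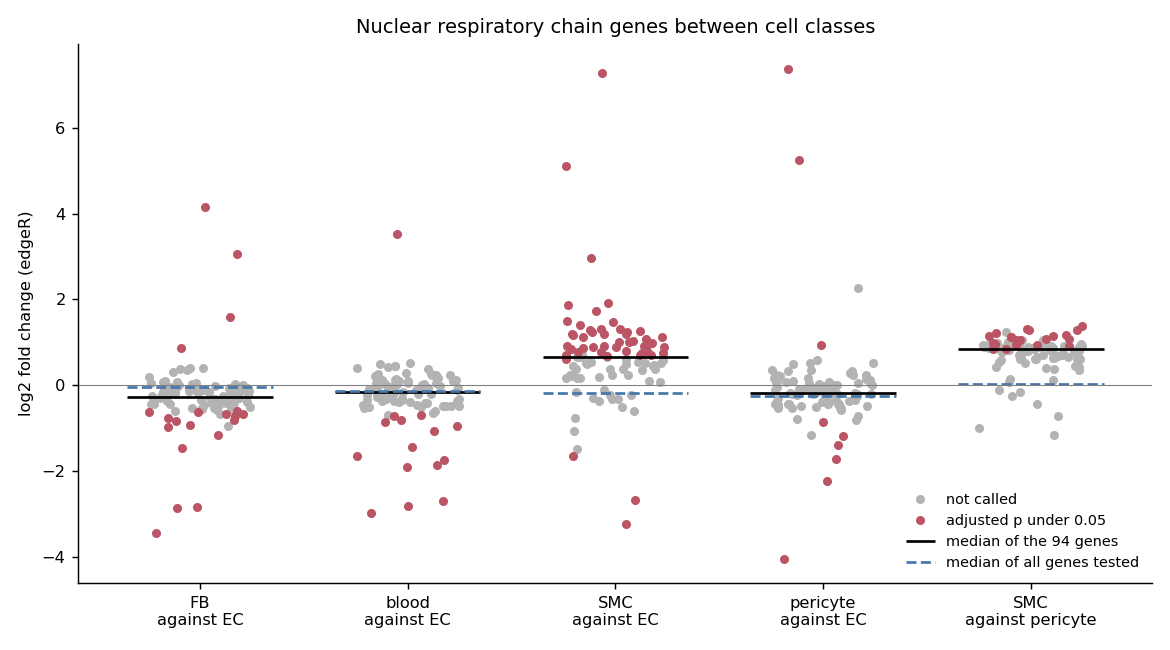
Log2 fold change (y axis, edgeR) of each of the 94 genes in the 5 class contrasts (x axis); red points have an adjusted p under 0.05, and lines give the medians of the 94 genes (black) and of all tested genes (blue, dashed). The black line stands apart from the blue in both SMC contrasts, at 0.66 against -0.19 for SMC against EC, and the 2 points above 5 in the SMC and pericyte columns are *Ndufa4l2* and *Cox4i2*.

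*Cox4i2* (GRCm38 chr2:152754173-152765037, plus strand) was highest in mural cells. It stood at 919, 1115 and 877 CPM in pericytes at 0, 2 and 12 weeks and at 475, 901 and 883 CPM in SMCs. In FBs it was at 55.8, 38.1 and 95.7 CPM, in ECs at 18.5, 17.8 and 31.4 CPM and in blood cells at 4.70, 0 and 5.40 CPM, where 0 UMIs at 2 weeks allow up to 7.25 CPM. The mural values lay above all others, and those of FBs above those of ECs and blood cells. Against ECs the log2 fold change was 5.26 ± 0.33 (SE; adjusted p = 2.56e-23) in pericytes, 5.10 ± 0.33 (SE; adjusted p = 1.43e-23) in SMCs, 1.59 ± 0.32 (SE; adjusted p = 2.46e-05) in FBs and -1.85 ± 0.46 (SE; adjusted p = 6.32e-04) in blood cells. Pericytes and SMCs were not told apart (-0.16 ± 0.28, adjusted p = 0.926). These 4 calls against ECs held in each of 12 alternatives.

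Its partner *Cox4i1* (chr8:120668222-120674207, plus strand) varied far less. It was at 954, 1371 and 694 CPM in pericytes, 1344, 1539 and 1477 CPM in SMCs, 1020.2, 1120.0 and 933 CPM in ECs, 766, 751 and 745 CPM in FBs and 845, 908 and 738 CPM in blood cells. No contrast with ECs passed the test, and SMCs were above pericytes at 0.84 ± 0.25 (SE; adjusted p = 0.0493), a call that held in 5 of 12 alternatives. Of the UMIs of the pair summed over the 3 libraries, *Cox4i2* made up 48.8% (95% interval 45.7 to 51.9%) in pericytes and 29.0% (95% interval 27.2 to 30.8%) in SMCs. In FBs it made up 7.27% (95% interval 6.5 to 8.11%), in ECs 1.76% (95% interval 1.48 to 2.09%) and in blood cells 0.5% (95% interval 0.280 to 0.823%). These intervals are exact binomial for counting error only and leave out the spread between libraries. In SMCs the share by library was 26.1, 36.9 and 37.4% at 0, 2 and 12 weeks, and the interval of the summed share held none of these. With the stricter gate of 90% marker purity the pericyte share was 62.5%.

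**Figure D3:**
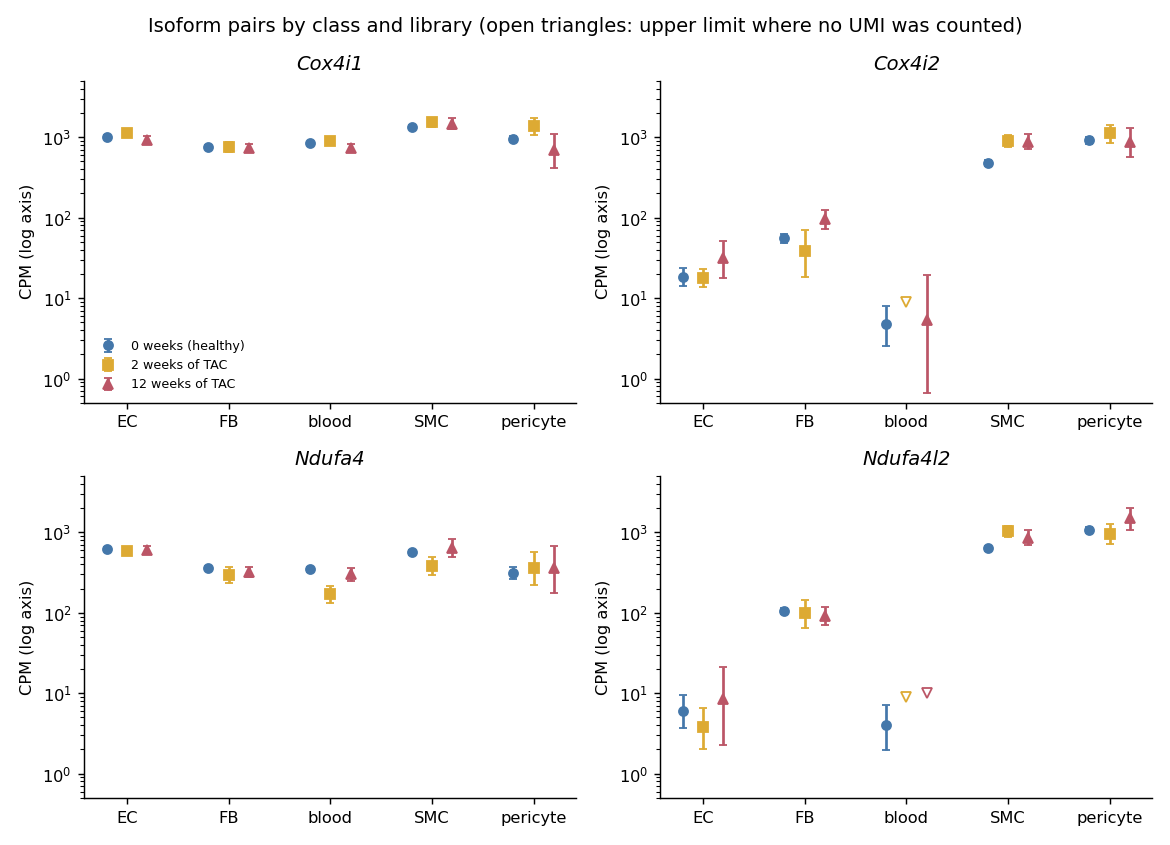
CPM (log axis) of *Cox4i1*, *Cox4i2*, *Ndufa4* and *Ndufa4l2* by class (x axis) and library (points, with 95% Poisson intervals; open triangles are upper limits where no UMI was counted). *Cox4i1* and *Ndufa4* lie within about 1 decade in all classes, whereas *Ndufa4l2* runs from at most 8.39 CPM in ECs to 1498 CPM in pericytes.

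*Ndufa4l2* (chr10:127514967-127517154, plus strand) followed the same classes with a wider range. Pericytes had 1071, 969 and 1498 CPM and SMCs 636, 1036 and 863 CPM. FBs had 106, 99.1 and 92.5 CPM, ECs 6.07, 3.86 and 8.39 CPM and blood cells 3.98, 0 and 0 CPM, with 0 UMIs at 2 and 12 weeks (up to 7.25 and 8.10 CPM). FBs thus lay between mural cells and ECs with no overlap on either side. Against ECs the log2 fold change was 7.38 ± 0.37 (SE; adjusted p = 7.43e-29) in pericytes, 7.26 ± 0.36 (SE; adjusted p = 2.27e-29) in SMCs and 4.17 ± 0.35 (SE; adjusted p = 1.74e-17) in FBs, and these calls held in all 12 alternatives. Neither pericytes and SMCs (-0.12 ± 0.27, adjusted p = 0.953) nor blood cells and ECs (-0.49 ± 0.55, adjusted p = 0.703) were told apart.

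*Ndufa4* (chr6:11900292-11907497, minus strand) was lower than in ECs in every class but SMCs, whose values are given above and overlapped those of ECs. It was at 626, 584 and 608 CPM in ECs, 365, 297 and 321 CPM in FBs, 348, 172 and 303 CPM in blood cells and 313, 366 and 365 CPM in pericytes. Every EC value lay above those of these 3 classes, and the log2 fold change was -0.93 ± 0.25 (SE; adjusted p = 0.0015) in FBs, -0.82 ± 0.25 (SE; adjusted p = 0.0055) in blood cells and -1.17 ± 0.28 (SE; adjusted p = 0.00165) in pericytes. Summed over the 3 libraries, *Ndufa4l2* made up 77.1% (95% interval 74.0 to 80.1%) of the UMIs of the pair in pericytes, 56.3% (95% interval 53.8 to 58.7%) in SMCs and 22.6% (95% interval 20.9 to 24.4%) in FBs. These intervals cover counting error only, and in SMCs the share by library was 52.9, 72.8 and 57.2% at 0, 2 and 12 weeks. In ECs the summed share was 0.847% (95% interval 0.594 to 1.17%) and in blood cells 0.951% (95% interval 0.476 to 1.69%). The EC share was thus no higher than that of blood cells, but *Ndufa4*, the larger part of the pair, was higher in ECs. Whether the *Ndufa4l2* UMIs of ECs are background was not tested.

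Counted by cell, 80.6% of pericytes and 68.9% of SMCs had a *Cox4i2* UMI, and 85.6% and 63.8% had an *Ndufa4l2* UMI. With each cell thinned to 1000 UMIs (14 pericytes, 10 SMCs, 56 FBs, 565 ECs and 114 blood cells were too shallow), *Cox4i2* remained in 63.0% of pericytes, 33.7% of SMCs, 4.73% of FBs, 1.64% of ECs and 0.658% of blood cells. For *Ndufa4l2* the thinned shares were 64.4% in pericytes, 40.1% in SMCs, 8.45% in FBs, 0.390% in ECs and 0.493% in blood cells. Whether the UMIs of these forms in blood cells are background was not tested. Before thinning, the median blood cell held 2406 UMIs, the median pericyte 2730.5 and the median FB 2802, and 1.05% of blood cells had a *Cox4i2* UMI and 0.827% an *Ndufa4l2* UMI, against 11.1% and 23.1% of FBs. Both forms were found together in 119 of 160 pericytes and 195 of 354 SMCs, but in 44 of 1535 FBs, where 311 cells had *Ndufa4l2* alone and 126 had *Cox4i2* alone.

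In FBs the 2 forms differed in opposite directions between cells with and without *Wif1*, which encodes a secreted Wnt inhibitor. *Wif1* was chosen for this comparison after values of these cells were seen, so it has no test. The 98 FBs with a *Wif1* UMI had *Cox4i2* at 318 CPM (262 to 382) and the other 1437 FBs at 40.1 CPM (34.5 to 46.3). *Ndufa4l2* ran the other way, at 22.5 CPM (9.71 to 44.3) and 110.3 CPM (101 to 120.3). *Cox4i1* was at 767 and 762 CPM and *Ndufa4* at 318 and 359 CPM. The pericyte marker list summed to 208 CPM in the *Wif1*-positive FBs and 66.1 CPM in the others, far under the 12054 CPM of healthy pericytes, and its part in the difference was not tested. *Rgs5* alone made up 149 and 30.8 CPM of these sums.

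The genes whose levels ran most closely with these forms over the 15 sums were then ranked. For *Cox4i2* they were *Gucy1b3* (Pearson r = 0.976), *Arhgef17* (0.973), *Gucy1a3* (0.972), *Ednra* (0.970) and *Rasl11a* (0.969), among 9809 genes with at least 100 UMIs, on log2(CPM + 10) and leaving out the gate markers and the 94 genes. For *Ndufa4l2* they were *Plce1* (0.987), *Gucy1b3* (0.985), *S1pr3* (0.976), *Ednra* (0.975) and *Arhgef17* (0.974). *Gucy1a3* and *Gucy1b3* encode the subunits of soluble guanylate cyclase, the nitric oxide receptor, and *Ednra* the endothelin A receptor. *Cox4i2* and *Ndufa4l2* correlated with each other at r = 0.976. The 15 sums share libraries and cell classes, so these values describe the classes and carry no p.

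In the healthy heart the muscle forms of complex IV were highest in ECs, where cardiomyocyte (CM) transcripts were highest too. *Cox6a2* stood at 63.6, 49.6 and 16.8 CPM in ECs at 0, 2 and 12 weeks, *Cox7a1* at 64.2, 40.1 and 6.29 CPM and *Cox8b* at 51.4, 33.0 and 8.39 CPM. Across the libraries all 3 were lowest at 12 weeks. In ECs the 11 CM markers summed to 913, 630.0 and 218 CPM in the same libraries, in FBs to 60.4, 61.0 and 23.9 CPM and in blood cells to 63.6, 38.7 and 37.8 CPM, and *Myl2*, a ventricular myosin light chain, was the highest of them in ECs. SMCs had 697, 784 and 1021 CPM of the list but 4.83, 11.7 and 0 CPM of *Cox6a2*, and the highest marker there was *Pln*, which SMCs also express, at 533 CPM against 42.7 CPM in ECs. The ratio of 12 to 0 weeks in ECs was 0.0980 (0.0200 to 0.290) for *Cox7a1*, 0.163 (0.0439 to 0.426) for *Cox8b* and 0.264 (0.112 to 0.530) for *Cox6a2*, and 0.239 (0.194 to 0.291) for the CM list.

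Within ECs the muscle forms followed the number of CM markers in the cell. In 1580 ECs with no CM marker detected, *Cox6a2*, *Cox7a1* and *Cox8b* stood at 16.5, 16.8 and 12.2 CPM. In 502 ECs with 3 or more markers they stood at 114, 104 and 92.6 CPM. Those cells were also deeper, with a median of 2766 UMIs against 1500.0. The partners *Cox6a1*, *Cox7a2* and *Cox8a* were at 634, 535 and 588 CPM without CM markers and at 580.3, 568 and 609.9 CPM with 3 or more. Against ECs *Cox6a2* was lower in FBs (log2 fold change -3.44 ± 0.46, adjusted p = 1.23e-09), blood cells (-2.97 ± 0.46, adjusted p = 5.49e-08), SMCs (-3.23 ± 0.57, adjusted p = 3.48e-06) and pericytes (-4.04 ± 0.80, adjusted p = 7.68e-05), with 0 UMIs in pericytes at 2 and 12 weeks, which allow up to 54.8 and 109.6 CPM, above the EC levels there. *Cox8b* was lower in FBs (-2.86 ± 0.46, adjusted p = 2.27e-07), blood cells (-2.71 ± 0.48, adjusted p = 2.11e-06), SMCs (-2.67 ± 0.56, adjusted p = 8.95e-05) and pericytes (-2.23 ± 0.67, adjusted p = 0.0151). Its call in pericytes ended without cells with 3 or more CM markers (-1.16, adjusted p = 0.376), without the healthy library, without the library block and with DESeq2. *Cox7a1* was lower in FBs (-2.83 ± 0.42, adjusted p = 2.43e-08), in blood cells and in pericytes (-1.72 ± 0.56, adjusted p = 0.0281), and was not called in SMCs. In pericytes 6 of 12 alternatives ended the call of *Cox7a1*. The part of CM transcripts in these differences was not tested.

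**Figure D4:**
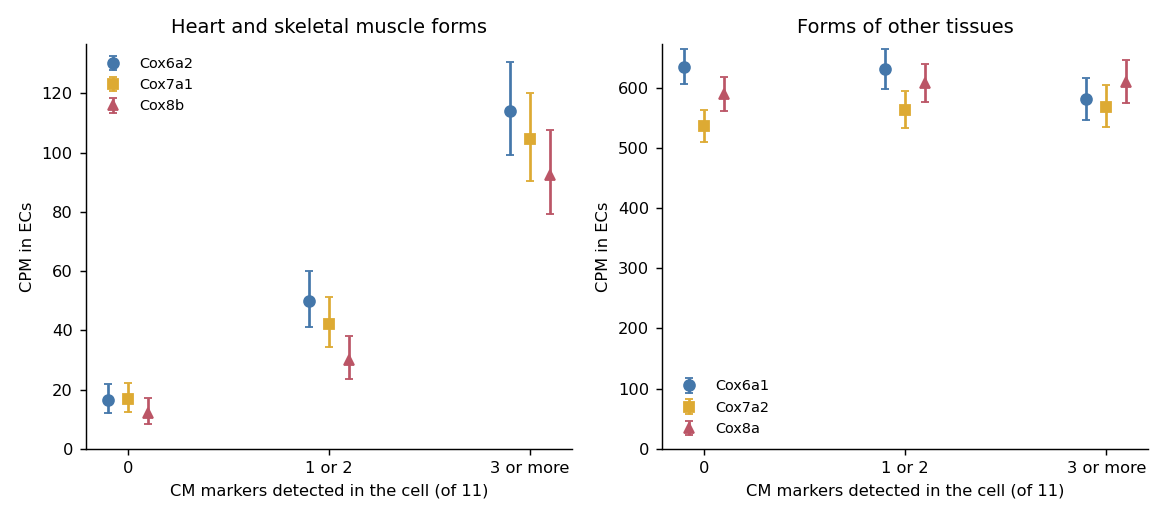
CPM in ECs (y axes, from 0) of the muscle forms (left) and their partners (right) in cells with 0, 1 or 2, or 3 or more of 11 CM markers detected (x axis); bars are 95% Poisson intervals. The muscle forms climb from under 17 CPM to over 92 CPM, whereas the partners stay between 535 and 634 CPM.

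In FBs the share of respiratory chain genes called lower than in ECs was near that of all genes, and the share called higher was under it. Of the 94 genes 4 were higher in FBs and 16 lower, where 17.2% of all genes were higher and 16% lower, and the median log2 fold change was -0.27 against -0.05 for all genes. Complex IV held 8 of the 16 lower genes, among them *Cox6a2*, *Cox7a1* and *Cox8b*. Without the 2-week library the lower calls fell to 5, while those of all genes went from 2079 of 12987 to 1555 of 12591. *Cox7a2*, a small subunit of complex IV, was at 372, 252 and 293 CPM in FBs and 557, 556 and 507 CPM in ECs (-0.84 ± 0.25, adjusted p = 0.00422), and *Cox6a1* at 380.3, 358 and 378 and 523, 702 and 656 CPM (-0.76 ± 0.25, adjusted p = 0.0103). Besides *Ndufa4l2* and *Cox4i2*, the higher genes were *Cox6b2* and the assembly factor *Ndufaf7*. *Cox6b2*, known as the testis form of *Cox6b1*, was at 15.8, 22.9 and 22.3 CPM in FBs against 1.92, 2.08 and 2.10 CPM in ECs (3.07 ± 0.50, adjusted p = 2.85e-07), with no overlap.

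Blood cells had the lowest summed level but few calls. Only *Cox6b2*, at 17.4, 19.3 and 24.3 CPM (3.53 ± 0.50, adjusted p = 4.54e-09), was called higher than in ECs, and 14 were lower, where 17.6% of all genes were higher and 19.1% lower. With library sizes alone 1 was higher and 40 lower, where 1711 and 3934 of all 12987 genes were. That scaling moved the median of all genes from -0.12 to -0.50. DESeq2, with another model and scaling, gave 7 higher and 11 lower, where 2017 and 1616 of all 12735 genes were. *Ndufa8* and *Atp5j*, singled out after their values were seen, were lower than in ECs in blood cells, FBs and pericytes alike. *Ndufa8*, an accessory subunit of complex I, was at 318, 355 and 344 CPM in ECs, 91.5, 89.4 and 111 CPM in blood cells and 134, 145 and 98.9 CPM in FBs (-1.44 ± 0.26, adjusted p = 2.95e-06 for blood cells). *Atp5j*, a stalk subunit of complex V, was at 851, 900.0 and 843 CPM in ECs, 341, 302 and 324 CPM in blood cells and 436, 419 and 336 CPM in FBs (-1.07 ± 0.24, adjusted p = 1.50e-04). *Atp5s* was at 0.362, 0 and 2.70 CPM in blood cells, a level of few UMIs.

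Other genes of the pathway were read from fixed lists. Among 34 tested nuclear genes for electron carriers and further assembly or inhibitory factors, 7 were higher and 3 lower in SMCs than in ECs, where 11.8 and 12.8% of all genes were. In pericytes 3 were higher and 1 lower (5.95 and 6.02% of all genes), in FBs 5 and 4 (17.2 and 16%) and in blood cells 2 and 3 (17.6 and 19.1%), and SMCs were higher than pericytes for 2 (1.82% of all genes). *Higd1b*, a paralog of the hypoxia-induced *Higd1a*, had the largest differences, at 702, 676 and 767 CPM in pericytes and 269.6, 644 and 704 CPM in SMCs against 3.83, 1.78 and 8.39 CPM in ECs (log2 fold change 7.36 in pericytes, adjusted p = 8.28e-27, and 7.08 in SMCs, adjusted p = 7.62e-27). *Cycs*, which encodes cytochrome c, was at 609, 673 and 615 CPM in SMCs and 227, 196 and 166 CPM in ECs (1.69 ± 0.26, adjusted p = 1.66e-07), and *Atpif1*, the inhibitor of ATP synthase, at 915, 1264 and 1269 and 237, 220.1 and 169.8 CPM (2.47 ± 0.26, adjusted p = 6.45e-13). Of the 13 mitochondrially encoded subunits, 6 were higher in FBs, 9 in blood cells and 9 in pericytes than in ECs, and none was lower. Of all genes 17.2, 17.6 and 5.95% were higher in these contrasts and 16, 19.1 and 6.02% lower.

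Of 11 tested regulators of mitochondrial genes, 4 were higher and 1 (*Nrf1*) lower in SMCs than in ECs, where 11.8 and 12.8% of all genes were higher and lower. The higher genes were the coactivators *Ppargc1a* and *Ppargc1b*, the nuclear receptor *Esrra* and *Hif1a*. *Ppargc1b* was at 75.4, 58.5 and 99.2 CPM in SMCs, 78.2, 0 and 183 CPM in pericytes and 1.60, 0.594 and 4.19 CPM in ECs (log2 fold change 5.51 ± 0.50, adjusted p = 8.15e-16 in SMCs), and was the only list member higher in pericytes. The 0 UMIs of pericytes at 2 weeks allow up to 54.8 CPM. *Esrra* was at 62.8, 87.8 and 79.3 against 19.2, 22.3 and 16.8 CPM (1.89 ± 0.34, adjusted p = 5.18e-06). *Epas1*, which encodes HIF-2α, was the only regulator called in FBs and blood cells, where it was lower than in ECs (-2.86 ± 0.30, adjusted p = 1.31e-13 and -4.39 ± 0.34, adjusted p = 2.62e-19). Of 8 hypoxia-responsive genes, 4 were lower and 1 higher than in ECs in FBs, in blood cells and in SMCs, against the shares of all genes given above, and *Adm* alone was called, lower, in pericytes. *Adm*, which encodes adrenomedullin, was at 112, 71.0 and 67.1 CPM in ECs and 19.6, 54.8 and 0 CPM in pericytes. The 0 UMIs of pericytes at 12 weeks allow up to 109.6 CPM, above the EC level there. In SMCs the 4 lower genes of the list were *Pdk1*, *Bnip3*, *Ankrd37* and *Adm*, and the higher gene was *Vegfa* (1.70 ± 0.38, adjusted p = 2.07e-04). *Ndufa4l2*, which was not in this list, was higher too, and the part of hypoxia in its level was not tested.

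Between phases the summed respiratory chain genes of ECs differed little. Their sum at 2 weeks was 1.08 (1.07 to 1.09) times that of the healthy library and at 12 weeks 0.976 (0.956 to 0.996) times (95% interval). Without cells with 3 or more CM markers the 12-week ratio was 1.01. At 2 weeks 0 of 93 genes with at least 20 UMIs were 1.5 times higher or more and 4 lower, where 13.4% and 13.4% of all genes were, and at 12 weeks 5 of 93 genes with at least 20 UMIs were 1.5 times higher or more and 8 lower, where 22.3% and 16.7% of all genes were. The median log2 ratio (1 CPM added) was 0.09 and 0.02, against 0.02 and 0.09 for all genes. In parentheses the ratio to the healthy library comes first and its 95% interval second, and the highest and lowest ratios of each class are taken among genes with at least 50 UMIs over both libraries. The lowest ratios at 12 weeks were those of the muscle forms described above, and *Cox7a1* (0.625, 0.498 to 0.781) and *Cox8b* (0.641, 0.499 to 0.822) were also among the 3 lowest at 2 weeks, with *Ndufaf5* (0.630, 0.344 to 1.13). The highest ratios at 2 weeks were those of *Ndufaf6* (1.46, 0.821 to 2.66) and of the complex I subunits *Ndufa3* (1.38, 1.27 to 1.5) and *Ndufc2* (1.38, 1.25 to 1.52). At 12 weeks they were those of *Cox4i2* (1.70, 0.893 to 3.03), *Sdha* (1.65, 1.25 to 2.16) and *Ndufaf3* (1.64, 1.00 to 2.59). *Sdha* stood at 88.8 CPM at 0 and 147 CPM at 12 weeks (278 and 70 UMIs). The interval of *Cox4i2* holds 1. Erythroid transcripts summed to 7089 CPM in ECs at 12 weeks and to 101.3 CPM in the healthy library, and the dissociation stress list to 11557 and 17133 CPM, and their part in these ratios was not tested.

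In FBs the sum was 0.922 (0.895 to 0.950) and 0.901 (0.883 to 0.919) times the healthy value at 2 and 12 weeks. At 2 weeks 1 of 93 genes with at least 20 UMIs were 1.5 times higher or more and 11 lower, where 21.6% and 24.7% of all genes were, and at 12 weeks 4 of 94 genes with at least 20 UMIs were 1.5 times higher or more and 7 lower, where 16.2% and 16.1% of all genes were. The median log2 ratio was -0.12 and -0.14, against -0.02 and 0.02 for all genes. *Ndufb6* (0.498, 0.293 to 0.794) and *Sdhb* (0.509, 0.294 to 0.823) had intervals below 1 at 2 weeks, unlike *Sdhaf3* (0.570, 0.0673 to 2.16), and the highest ratios among genes with at least 50 UMIs, of *Sdhc* (1.49, 0.913 to 2.30), *Cox6b2* (1.45, 0.512 to 3.32) and *Ndufs3* (1.40, 0.946 to 2.02), had intervals that held 1. The gene past 1.5 times at the lower minimum of 20 UMIs was *Atp5sl* (2.24, 0.427 to 7.49; 21 and 3 UMIs). At 12 weeks *Cox4i2* was higher in FBs, with 55.8 CPM at 0 and 95.7 CPM at 12 weeks (ratio 1.72, 1.27 to 2.29), while *Ndufaf7* (1.51, 0.927 to 2.37) and *Sdhaf1* (1.42, 0.715 to 2.61) had intervals that held 1. Over all libraries 113 of the 299 *Cox4i2* UMIs of FBs lay in the 98 cells with a *Wif1* UMI. The part of such cells in the *Cox4i2* ratio was not tested, and its interval does not cover this clustering. *Ndufc1* (0.626, 0.492 to 0.788) and *Ndufaf2* (0.565, 0.339 to 0.893) were lower at 12 weeks, and *Sdhaf3* was at 0.596 (0.186 to 1.48). The mitochondrially encoded list went the other way from the nuclear genes, at 1.92 (1.89 to 1.95) times the healthy sum at 2 weeks and 1.33 (1.31 to 1.35) at 12 weeks, and 40.2% of the 97 FBs at 2 weeks had over 10% mitochondrial UMIs. Without such cells the nuclear sum at 2 weeks was 0.977 (0.947 to 1.01).

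Blood cells gave sums of 0.972 (0.948 to 0.997) and 0.922 (0.898 to 0.947) times the healthy value. With mitochondrial, ribosomal protein and haemoglobin genes out of the total, the 2-week ratio was 1.01. At 2 weeks 1 of 86 genes with at least 20 UMIs were 1.5 times higher or more and 11 lower, where 21.4% and 24.3% of all genes were, and at 12 weeks 4 of 86 genes with at least 20 UMIs were 1.5 times higher or more and 9 lower, where 26.4% and 21.2% of all genes were. The median log2 ratio was -0.13 and -0.11, against -0.02 and 0.08 for all genes. *Ndufa4* was lower at 2 weeks, with 348 CPM at 0 and 172 CPM at 2 weeks (ratio 0.493, 0.381 to 0.627), with *Ndufv1*, a catalytic subunit of complex I, at 0.424 (0.179 to 0.862) and *Sdhaf4* at 0.455 (0.163 to 1.03). *Ndufa3* was higher in both later libraries (1.36, 1.11 to 1.66 at 2 weeks; 1.41, 1.14 to 1.73 at 12 weeks), as were *Ndufa6* (1.42, 1.18 to 1.69) and *Ndufb7* (1.35, 1.08 to 1.67) at 2 weeks. At 12 weeks *Cox6b2* (1.40, 0.604 to 2.89) and *Ndufv2* (1.30, 0.893 to 1.84) had intervals that held 1, *Ndufc1* (0.582, 0.401 to 0.822) and *Ndufa12* (0.592, 0.373 to 0.897) were lower, and *Ndufaf2* was at 0.584 (0.183 to 1.43). The blood gate pools leukocyte types whose mix can differ between libraries, and its marker list summed to 18581 CPM at 0 and 11722 CPM at 12 weeks, whose part in these ratios was not tested. The mitochondrially encoded list was at 1.35 (1.33 to 1.37) and 1.30 (1.28 to 1.32) times its healthy level and the stress list at 0.7 (0.669 to 0.732) and 0.534 (0.506 to 0.563), and 2.71, 15.5 and 23.6% of blood cells were over 10% mitochondrial at 0, 2 and 12 weeks. Without such cells the sums were 0.997 and 0.948 times the healthy value.

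Mural cells had the highest ratios of the summed level, 1.17 (1.14 to 1.19) times the healthy value at 2 weeks and 1.23 (1.19 to 1.26) times at 12 weeks. From 0 to 12 weeks the sum went from 35696 to 44661 CPM in SMCs but from 26859 to 25096 CPM in pericytes. SMCs held 1034931 and pericytes 460184 UMIs at 0 weeks, against 100849 and 27375 at 12 weeks, and the part of this mix was not tested. In mural cells at 2 weeks 5 of 85 genes with at least 20 UMIs were 1.5 times higher or more and 4 lower, where 17.2% and 22.6% of all genes were, and at 12 weeks 17 of 86 genes with at least 20 UMIs were 1.5 times higher or more and 2 lower, where 20.1% and 31.5% of all genes were. The share of higher genes at 12 weeks was thus near that of all genes and the share of lower genes under it, with median log2 ratios of 0.18 and 0.34 against -0.01 and -0.06 for all genes. Counted by class, at 2 weeks in SMCs 5 of 84 genes with at least 20 UMIs were 1.5 times higher or more and 3 lower, where 18.6% and 21.9% of all genes were, and at 12 weeks 18 of 84 genes with at least 20 UMIs were 1.5 times higher or more and 1 lower, where 19.1% and 32.1% of all genes were. At 2 weeks in pericytes 7 of 79 genes with at least 20 UMIs were 1.5 times higher or more and 8 lower, where 19.3% and 27.9% of all genes were, and at 12 weeks 12 of 80 genes with at least 20 UMIs were 1.5 times higher or more and 23 lower, where 25.2% and 34.8% of all genes were, on 27375 UMIs from 18 cells, with a median log2 ratio of -0.12 against -0.17 for all genes. Other signs moved with the mural sum: the mitochondrially encoded list was at 1.32 (1.30 to 1.34) and 1.30 (1.27 to 1.32) times its healthy level, the CM list at 1.56 (1.26 to 1.91) at 12 weeks, and the share of cells over 10% mitochondrial was 4.17, 40.9 and 27.8% in pericytes and 37.4, 56.5 and 40.9% in SMCs at 0, 2 and 12 weeks. Without such cells the mural ratio at 2 weeks was 1.22, and the part of the CM list was not tested. A mean that gave each cell equal weight was 1.06 and 1.05 times the healthy value, and the gate of 90% purity gave 1.09 and 1.17. *Sdha* stood at 152 CPM at 0 and 343 CPM at 12 weeks (227 and 44 UMIs, ratio 2.26, 1.60 to 3.13) and was at 1.52 (1.10 to 2.06) at 2 weeks. *Ndufv2* (2.05, 1.41 to 2.92) and *Ndufa9* (2.08, 1.24 to 3.32), both of complex I, were higher at 12 weeks, and *Cox4i2* (1.56, 1.34 to 1.81) and *Ndufa8* (1.51, 1.12 to 2.00) at 2 weeks. Among genes with at least 50 UMIs the lowest ratios were those of *Ndufs4* (0.643, 0.334 to 1.14), *Ndufa4* (0.782, 0.618 to 0.979) and *Ndufs1* (0.789, 0.365 to 1.52) at 2 weeks and of *Atp5g1* (0.781, 0.524 to 1.12), *Ndufs4* (0.783, 0.35 to 1.53) and *Ndufaf2* (0.886, 0.315 to 2.01) at 12 weeks, and of these only the interval of *Ndufa4* lay below 1. Genes between 20 and 50 UMIs went lower at 2 weeks, to 0.189, 0.00466 to 1.13 for *Sdhaf1* (35 and 1 UMIs).

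**Figure D5:**
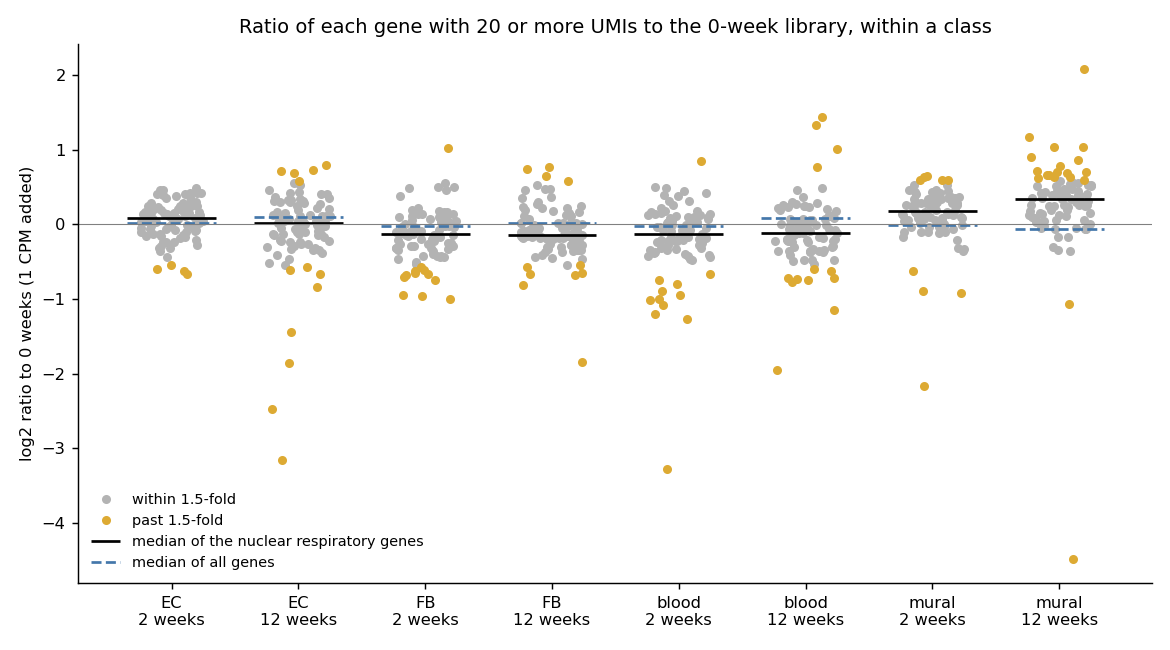
Log2 ratio of CPM to the 0-week library (y axis, 1 CPM added) for each respiratory chain gene with at least 20 UMIs over both libraries, by class and week (x axis); orange points are past 1.5-fold, and lines give the median of these genes (black) and of all genes (blue, dashed). The black line departs most from the blue in mural cells at 12 weeks, at 0.34 against -0.06; the 3 lowest EC points at 12 weeks are *Cox7a1*, *Cox8b* and *Cox6a2*.

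The isoform pairs differed between the phases in SMCs. *Cox4i2* was 1.90 (1.57 to 2.28) times its healthy level in SMCs at 2 weeks and 1.86 (1.46 to 2.33) times at 12 weeks, and *Cox4i1* 1.15 (1.00 to 1.31) and 1.10 (0.922 to 1.30) times. The *Cox4i2* share of the pair in SMCs went from 26.1% (95% interval 24.2 to 28.2%) to 36.9% (95% interval 32.3 to 41.8%) and 37.4% (95% interval 31.2 to 43.9%), and the later intervals lay above the first. For *Ndufa4l2* the share in SMCs went from 52.9% (95% interval 50.1 to 55.7%) to 72.8% (95% interval 66.8 to 78.3%) and 57.2% (95% interval 49.0 to 65.2%), where the last interval overlapped the first. In pericytes the *Cox4i2* share was 49.1% (95% interval 45.7 to 52.5%), 44.9% (95% interval 36.3 to 53.6%) and 55.8% (95% interval 39.9 to 70.9%), with overlapping intervals. The pericyte marker list in SMCs summed to 3838, 6198 and 3828 CPM at 0, 2 and 12 weeks, higher at 2 weeks only, and its part in these shares was not tested. This list was mostly *Rgs5* there, at 4031 CPM over all SMCs, with every other gene of the list at 43.6 CPM or less. Each value rests on 1 library.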

How the data were processed

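Non-CMs were released from mouse ventricles with collagenase II and DNase, cleared of red cells and debris, and run on the 10x Genomics 3′ platform, which tags each molecule once near its 3′ end. The authors deposited raw UMI counts per gene and cell as 3 matrices, 1 per phase, made with Cell Ranger 2.0.0 on mm10 per the submitters' processing notes. The 3 libraries held 12309881, 4472377 and 1723863 UMIs at 0, 2 and 12 weeks.

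Cells with at least 200 genes were gated when their leading marker list had at least 3 UMIs and 66.7% of the lineage marker UMIs, and mural cells were split by the larger of the SMC and pericyte sums. No doublet caller was run. Cells with mixed markers (333) and neural cells (71) stayed out of the classes, and 26 cells were removed for too few genes.

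Classes were compared with edgeR 4.0.16 (R 4.3.3), using the quasi-likelihood test on 15 class and library sums, library as a block, TMM normalization, genes with at least 20 UMIs and Benjamini-Hochberg adjusted p under 0.05. Since every library supplies every class, the block pairs the classes by library, and the fit without it is among the alternatives. The sums are parts of 3 libraries, so p-values measure the spread among these sums and not among animals. Phases have 1 library each: a ratio of CPM was given with an exact binomial interval conditional on the total count, a level with an exact Poisson interval and a share with an exact Clopper-Pearson interval, all at 95% and for counting error only. At 0 UMIs, 3 counts set the limit. A ratio past 1.5 with at least 20 UMIs over both libraries was counted.

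Named were the isoform pairs and muscle forms, the most abundant gene of each complex, the 3 called genes with the largest change in each direction of a class contrast, and the 3 highest and 3 lowest phase ratios per class and week among genes with at least 50 UMIs over both libraries; the genes most like an isoform were ranked by Pearson's r. Alternatives were DESeq2 1.42.0, other scalings, filters on genes and cells, the stricter 90% gate, no block and leaving out each library. The genes, lists and tests were chosen with earlier results of these data known. Scripts were tested on simulated data. Python 3.11.15, NumPy 2.4.6, SciPy 1.17.1, pandas 2.3.3 and matplotlib 3.10.9 were used.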

Additional observations from a re-analysis of the deposited data

Results flagged for a closer look

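*Sdha* lay on opposite sides of its healthy level in different classes at 2 weeks, at a ratio of 1.52 (1.10 to 2.06) in mural cells and 0.495 (0.265 to 0.851) in blood cells. *Uqcrfs1*, the Rieske iron-sulfur protein of complex III, did so at 12 weeks, at 1.88 (1.30 to 2.65) in mural cells and 0.684 (0.485 to 0.941) in ECs. Both were picked because the 95% counting intervals lay on opposite sides of 1 among many genes compared, the difference itself was not tested, and each value rests on 1 library per phase.

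Both mural isoforms were also found in cells outside the gates. The 333 cells that fitted no class had *Cox4i2* at 169 CPM (144 to 197) and *Ndufa4l2* at 215 CPM (187 to 247), between the levels of FBs and SMCs. In the 71 neural cells *Cox4i2* stood at 14.7 CPM (2 UMIs), and *Ndufa4l2* had 0 UMIs, which allows up to 22.1 CPM.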

How the results depend on the processing

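Of 687 values of named genes in class contrasts, 605 kept their direction and their side of the threshold, 57 kept only the direction, 15 newly passed and 10 changed sign, none of them called in either fit. These 10 were *Cox4i1* in blood against EC (-0.30 with library sizes alone, and -0.011 to 0.092 with 1 library left out), *Cox7a2* in pericyte against EC (0.037 with DESeq2 and 0.091 with library sizes alone), *Ndufa4* in SMC against EC (-0.40 to 0.034 with 1 library left out), and, in SMC against pericyte with 1 library left out, *Cox4i2* (-0.31 to 0.32), *Ndufa4l2* (-0.38 to 0.21), *Cox7a1* (-0.14 to 1.17) and *Cox8b* (-6.23 to 0.43, and 4.25 with the 90% gate). The number of the 94 genes called stayed within 1.5 times in 47 of 60 refits. The exceptions among settings that kept all libraries were FB against EC without the library block (11), blood against EC with library sizes alone (41), and SMC against pericyte with DESeq2 (44), library sizes alone (5), no library block (1) and cells over 10% mitochondrial left out (14). The calls over all genes moved too. Without the library block 49 of 12987 genes were higher in SMCs than in pericytes, against 237 in the main fit. Leaving out 1 library at a time gave 8 to 16 calls for FB against EC, 9 to 11 for blood against EC, 31 to 39 for SMC against EC, 5 to 10 for pericyte against EC and 6 to 18 for SMC against pericyte.

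Summed phase ratios were less stable. The EC ratio at 12 weeks turned to 1.01 without cells with 3 or more CM markers, and the blood ratio at 2 weeks turned to 1.01 with mitochondrial, ribosomal protein and haemoglobin genes out of the total. That total also gave 1.13 for ECs and 1.23 for mural cells at 2 weeks and 0.971 for blood cells at 12 weeks. With the median ratio of all genes set to 1 the values were 1.07 (ECs, 2 weeks), 0.912 (ECs, 12 weeks), 0.870 (blood, 12 weeks) and 1.28 (mural, 12 weeks). Equal weight per cell gave 0.864 and 0.861 for FBs, 0.892 and 0.807 for blood cells and 1.06 and 1.05 for mural cells at 2 and 12 weeks. Without cells over 10% mitochondrial the ratios were 0.977 (FBs, 2 weeks), 0.997 and 0.948 (blood, 2 and 12 weeks) and 1.22 (mural, 2 weeks). A minimum of 500 genes gave 0.999 and 0.959 in blood cells and 1.19 in mural cells at 2 weeks, the 90% gate 0.959 in blood cells at 12 weeks and 1.09 and 1.17 in mural cells, and leaving out cells with CM markers 1.11 in ECs at 2 weeks.

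Isoform shares moved in 4 of 40 refits: in SMCs to 30.9% (*Cox4i2*) and 61.6% (*Ndufa4l2*) without cells over 10% mitochondrial, and in pericytes to 62.5% and 88.6% with the 90% gate. The cause of these moves was not tested. No paired analysis was possible across phases because each phase is 1 library. Depth limits the mural classes after TAC most, where 0 UMIs in pericytes at 12 weeks allow up to 109.6 CPM.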
